A study of Mus musculus with 6 samples.

Results

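The MHC class II presentation genes described here are *Cd74*, *H2-Aa*, *H2-Ab1*, *H2-Eb1*, *H2-DMa*, *H2-DMb1*, *H2-DMb2*, *H2-Oa*, *H2-Ob* and *Ciita*, taken by symbol from the gene-name columns of the deposited tables. All 10 were found among the 35602 genes of the count table and among the 34714 genes of the replicate 1 tables. Mouse splenic CD4+ T cells were stimulated with antibodies to CD3 and CD28 for 72 h and treated either with MAPK13-inhibitors, directed at the kinase Mapk13, or with DMSO alone, the solvent. Each group has 3 RNA-seq libraries. The labels name the compound MAPK13-IN-1. Replicates 2 and 3 of both groups came from WT spleen, and their labels place the addition of DMSO or of 17.1 µM inhibitor after day 1 of stimulation. The series design and the study's RNA-seq legend instead have the inhibitor or DMSO present for the whole 72 h, so the sources differ on exposure. The labels of the replicate 1 pair give spleen and the treatment, but no genotype, dose or day, and no label gives strain, age or sex. They carry no replicate number either, so replicate 1 is only a name used here. Replicates 2 and 3 were made with poly-T beads and are given as counts, with totals of 26874805 and 28487403 in the DMSO-treated libraries and of 33854760 and 32617702 in the MAPK13-inhibitors-treated libraries. The replicate 1 pair was made separately with a stranded mRNA kit and is given as values taken to be FPKM, that is, per length and per library size, which was inferred from the values because no source names the unit. The pair was left out of every test because no depth can be read from such values.

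MHC class II molecules are pairs of an alpha and a beta chain that show peptides from endocytosed protein to CD4+ T cells. The invariant chain, encoded by *Cd74*, guards the peptide groove of new class II molecules until they reach late endosomes, where H2-DM removes its last fragment and lets peptides load, and H2-O restrains H2-DM. These genes are typical of B cells, dendritic cells and macrophages, need the coactivator CIITA for their transcription, and are not a known feature of resting mouse CD4+ T cells.

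In the count table, 8 of the 10 genes rose with MAPK13-inhibitors, *H2-Ob* fell, and *H2-Oa* did not pass the test at an adjusted p of 0.05. Among all 16269 genes tested, 63.8% passed in either direction, 31.5% rose and 32.3% fell, so that most genes differed between these libraries. The median log2 fold change was 0.45 over the 10 genes and 0.01 over all genes tested. No gene of the 10 passed when an absolute log2 fold change over 1 was also required (0 by edgeR, 0 at its unadjusted p and 0 by DESeq2), whereas 23.4% of all genes did. That count depends on scaling, since with library totals *H2-Eb1* passed both at a log2 fold change of 1.02 (edgeR adjusted p = 7.31e-08). The even split of all genes depended on it too, with 6176 of 10478 called genes higher under library totals. Normalised read counts (CPM, counts relative to the TMM-scaled library size) were above both DMSO-treated libraries in both MAPK13-inhibitors-treated libraries for 8 of the 10 genes and below them for the other 2, against 41.7% and 41.4% of all genes tested. Nothing in the labels says that replicates came from separate cultures or animals, so the p-values measure only the spread between these libraries. In bulk RNA, a change in the number of cells that express class II genes and a change in RNA per cell cannot be told apart.

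**Figure D1:**
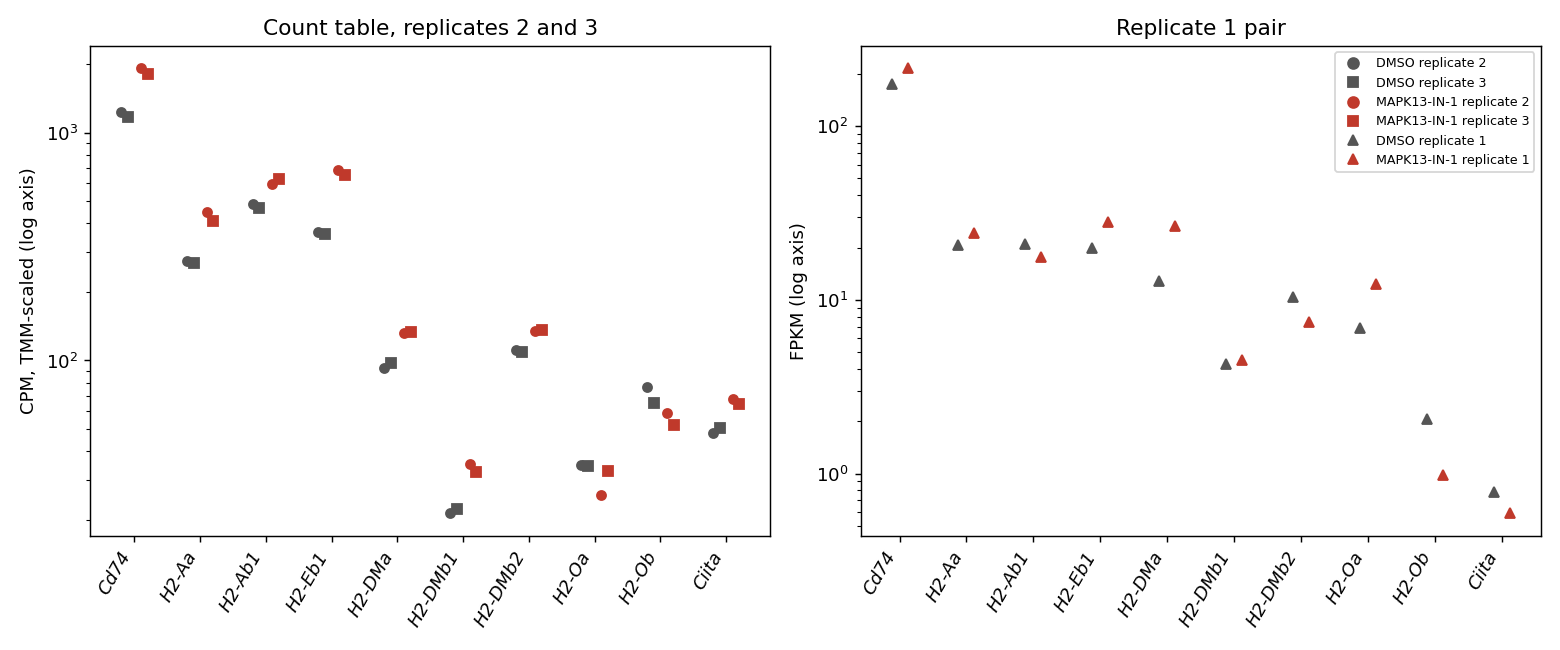
Levels of the 10 class II genes in each library, on log axes, as TMM-scaled CPM in replicates 2 and 3 (left) and as FPKM in the replicate 1 pair (right), each point being 1 library. In the left panel the red MAPK13-inhibitors-treated points lie above the grey DMSO-treated points for 8 genes and below them for *H2-Oa* and *H2-Ob*, and in the right panel the red point is higher for 6 genes.

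The classical chains rose to different extents. *H2-Eb1*, the beta chain of the E molecule, was at 365 and 361 CPM in the DMSO-treated libraries and at 690 and 655 CPM in the MAPK13-inhibitors-treated libraries. Both treated libraries lay far above both controls, with group means of 363 ± 3.32 and 673 ± 24.4 CPM (SD, n = 2). This was the largest log2 fold change among the 10 genes, 0.89 ± 0.05 (SE; edgeR adjusted p = 2.88e-07). *H2-Aa*, the alpha chain of the A molecule, was at 273 and 267 CPM with DMSO and at 447 and 409 CPM with MAPK13-inhibitors. The groups did not overlap, although the treated libraries lay further apart from each other than the controls did. Its log2 fold change was 0.67 ± 0.06 (SE; edgeR adjusted p = 4.30e-06). *H2-Ab1*, the beta chain that pairs with *H2-Aa*, was at 485 and 467 CPM with DMSO and at 598 and 630 CPM with MAPK13-inhibitors. Again both treated libraries were the higher ones, with a smaller step than for its partner chain, and the log2 fold change was 0.37 ± 0.05 (SE; edgeR adjusted p = 0.000133). *H2-Eb2*, a further class II beta gene beside *H2-Eb1*, also rose (log2 fold change 0.40, edgeR adjusted p = 0.00558), a call that was lost without DMSO replicate 3, and was lower in the replicate 1 pair (0.468 to 0.401 FPKM). *H2-Ea* was not analysed here because its symbol is not listed in the tables.

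*Cd74* had the most counts of the 10 genes, 31743 and 31974 in the DMSO-treated libraries and 68193 and 61469 in the MAPK13-inhibitors-treated libraries. Scaled to library size these were 1231 and 1176 CPM with DMSO and 1921 and 1814 CPM with MAPK13-inhibitors. The groups were well separated, and each replicate stayed close to its partner. The log2 fold change was 0.63 ± 0.05 (SE; edgeR adjusted p = 1.94e-06), close to that of *H2-Aa*. *Cd74* lies apart from the other genes, at chr18:60803848-60812652 of GRCm38.

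The genes of the peptide editor H2-DM rose as well. *H2-DMa*, its alpha chain, was at 93.2 and 97.3 CPM with DMSO and at 133 CPM in both MAPK13-inhibitors-treated libraries. The groups did not overlap, and the log2 fold change was 0.48 ± 0.06 (SE; edgeR adjusted p = 5.29e-05). *H2-DMb1*, a beta chain of the editor, was at 21.3 and 22.2 CPM with DMSO and at 35.1 and 32.4 CPM with MAPK13-inhibitors. It was the less abundant of the beta chain genes and was higher in both treated libraries, with a log2 fold change of 0.63 ± 0.09 (SE; edgeR adjusted p = 0.000144). *H2-DMb2*, the other beta chain gene, was at 112 and 109 CPM with DMSO and at 135 and 136 CPM with MAPK13-inhibitors. Its step was the smallest of the rising genes, although the groups did not overlap (log2 fold change 0.30 ± 0.06 SE; edgeR adjusted p = 0.00114). The longest coding transcripts of *H2-DMb1* and *H2-DMb2* share 26.6% and 25.2% of their 50-base stretches, so reads could be assigned to either copy and the split between them is uncertain. With both genes summed, the log2 fold change was 0.36 (edgeR adjusted p = 0.000259).

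The genes of H2-O did not rise. *H2-Ob*, the beta chain, was at 76.7 and 65.4 CPM with DMSO and at 58.9 and 52.0 CPM with MAPK13-inhibitors. Both treated libraries were lower than both controls, but the gap between the groups was smaller than the distance between the DMSO-treated libraries. *H2-Ob* fell by 0.36 ± 0.09 on the log2 scale (SE; edgeR adjusted p = 0.00629), a call that was lost without DMSO replicate 2 (edgeR adjusted p = 0.0757) and with scaling by library totals (edgeR adjusted p = 0.0501). *H2-Oa*, the alpha chain, was at 34.8 and 34.6 CPM with DMSO and at 25.6 and 32.7 CPM with MAPK13-inhibitors. The controls were nearly equal, and MAPK13-inhibitors replicate 3 was much closer to them than replicate 2 was. Its log2 fold change was -0.25 ± 0.11 (SE; edgeR adjusted p = 0.0732), and without MAPK13-inhibitors replicate 3 it was -0.45 (edgeR adjusted p = 4.66e-06). Without MAPK13-inhibitors replicate 2 it was -0.08 (edgeR adjusted p = 0.414), and with scaling by library totals -0.13 (edgeR adjusted p = 0.333). It was called lower with no filter (edgeR adjusted p = 0.0470) and with the replicate number as a block (edgeR adjusted p = 0.0172). *H2-Oa* shares 321 exonic bases with *BC051537* on the opposite strand, which had 9 to 26 counts per library.

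*Ciita*, the coactivator that turns class II genes on, was at 48.1 and 50.4 CPM with DMSO and at 67.5 and 64.4 CPM with MAPK13-inhibitors. Both treated libraries were higher than both controls, and the log2 fold change was 0.42 ± 0.07 (SE; edgeR adjusted p = 0.000425). *Ciita* lies at chr16:10480059-10528418 and shares 111 exonic bases with *Dexi*, which is read from the opposite strand, had 449 to 552 counts per library and fell by 0.47 on the log2 scale (edgeR adjusted p = 0.00587). Whether the counting used strand is not given in the sources used here, so reads from the shared bases cannot be told apart.

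To compare levels between genes, CPM was divided by the exonic length of each gene in kilobases. *Cd74* led with 830 to 1357 CPM per kilobase over the 4 libraries, above every other gene. *H2-Ab1* followed with 386 to 519, *H2-Eb1* with 216 to 413 and *H2-Aa* with 237 to 397 CPM per kilobase. *H2-Ab1* was above the other classical chains in each of the 4 libraries, while *H2-Aa* was above *H2-Eb1* with DMSO and below it with MAPK13-inhibitors. *H2-DMb2* came next with 62.5 to 78.0 CPM per kilobase and *H2-DMa* with 34.9 to 49.9, and neither range touched its neighbours. *H2-Oa* (23.5 to 32.0), *H2-DMb1* (15.2 to 25.0) and *H2-Ob* (14.8 to 21.8 CPM per kilobase) overlapped from each to the next, and *Ciita*, encoding a regulator, was lowest at 5.85 to 8.21 CPM per kilobase.

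Ratios within a library show how the chains stood to each other. On the same per-length scale, the log2 ratio of *H2-Ab1* to *H2-Aa* was 0.73 and 0.70 with DMSO and 0.31 and 0.52 with MAPK13-inhibitors, lower in both treated libraries. The log2 ratio of *H2-Oa* plus *H2-Ob* to the H2-DM genes was -1.08 and -1.19 with DMSO and -1.91 and -1.75 with MAPK13-inhibitors. The ratio was lower in both treated libraries of the count table, but not in the replicate 1 pair, where it was -1.61 with DMSO and -1.53 with MAPK13-inhibitors. For *H2-Oa* to *H2-Ob* the log2 ratio was 0.55 and 0.77 with DMSO and 0.49 and 1.02 with MAPK13-inhibitors, and the groups overlapped. *Cd74* to *H2-Ab1* was 1.12 and 1.11 with DMSO and 1.46 in MAPK13-inhibitors replicate 2, with replicate 3 lying between that and the controls. *H2-DMa* to the sum of *H2-DMb1* and *H2-DMb2* was -1.18 and -1.10 with DMSO and -1.04 and -1.02 with MAPK13-inhibitors, a small step. None of these ratios was tested.

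In the replicate 1 pair, 6 of the 10 genes were higher with MAPK13-inhibitors and 4 were lower. *Cd74* went from 176 to 215 FPKM, *H2-Aa* from 20.6 to 24.3 and *H2-Eb1* from 19.8 to 27.9, each from DMSO to MAPK13-inhibitors. *H2-DMa* went from 12.8 to 26.4 FPKM and *H2-DMb1* from 4.25 to 4.53. These 5 genes were higher in the treated library here as they were in the count table. *H2-Ab1* instead went from 20.9 to 17.5 FPKM, *H2-DMb2* from 10.4 to 7.47 and *Ciita* from 0.785 to 0.589. These 3 genes, which rose in the count table, were lower in the treated library of this pair. *H2-Oa* went from 6.93 to 12.3 FPKM, the opposite side from the count table, and *H2-Ob* from 2.06 to 0.979, the same side. *Ciita* was under 1 FPKM in both libraries. Of the 9 genes with at least 1 FPKM in either library, 6 were higher, against 56.5% of all such genes, which is near that background. Of the same 9 genes, 5 rose in the count table and were higher in this pair, against 21.2% of all such genes that were tested, and 2 rose in the count table and were lower in this pair, against 7.3%. Over all such genes tested, 2413 that rose in the count table were higher in this pair and 830 were lower. Most genes that rose were thus also higher in this pair, among the 9 genes and among all genes alike. On the scale of log2(FPKM + 1), the median log2 ratio was 0.15 over the 10 genes and 0.08 over all genes with at least 1 FPKM. With 1 library per group, none of these differences has a replicate check.

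The order of the levels also differed in this pair. *Cd74* was again highest and *Ciita* lowest. The log2 ratio of *Cd74* to *H2-Ab1* was 3.07 with DMSO and 3.62 with MAPK13-inhibitors, above all 4 libraries of the count table. The log2 ratio of *H2-DMa* to the H2-DM beta chain genes was -0.20 with DMSO and 1.14 with MAPK13-inhibitors, and that of *H2-Oa* to *H2-Ob* was 1.75 and 3.65. Since the pair differs from the count table in kit and in processing, levels were not compared across them by a test.

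Apart from *Cd74* and *Ciita*, the genes lie together on chromosome 17, from *H2-Oa* at chr17:34092340-34095234 to *H2-Eb1* at chr17:34305867-34316674 (GRCm38), with *H2-Eb2* beyond. Of 6 genes that lie among or beside them, *Psmb8* and *Brd2* rose, *Psmb9*, *Tap1* and *Tap2* fell and *Btnl2* did not pass (log2 fold change -0.48, edgeR adjusted p = 0.0969). *Tap1*, a subunit of the class I peptide transporter, was at 658 and 668 CPM with DMSO and at 447 and 472 CPM with MAPK13-inhibitors. Its treated libraries were the lower ones, and it fell by 0.53 on the log2 scale (edgeR adjusted p = 8.59e-06). *Psmb8*, an immunoproteasome subunit that lies next to *Tap1*, rose by a log2 fold change of 0.38 (edgeR adjusted p = 8.14e-05). The call of *Brd2* was lost without DMSO replicate 2. In the replicate 1 pair *Tap1* went from 156 to 157 FPKM, *Psmb8* from 239 to 231, *Psmb9* from 188 to 182, *Brd2* from 64.2 to 68.5 and *Tap2* from 142 to 165, mostly small steps.

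**Figure D2:**
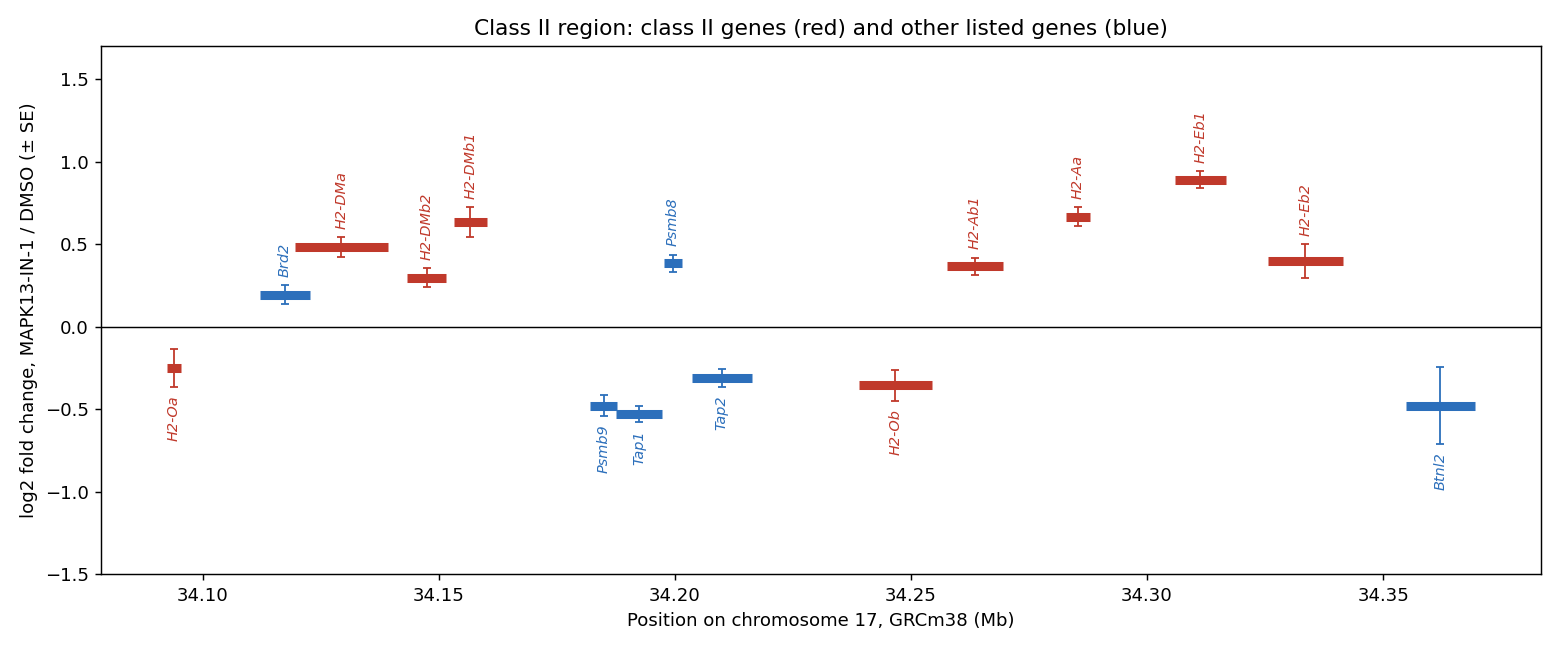
Log2 fold change of MAPK13-inhibitors-treated against DMSO-treated libraries in the count table (vertical axis, bars are ± 1 SE) for genes of the class II region by position on chromosome 17 of GRCm38 in megabases (horizontal axis, thick lines span each gene). Class II genes are red and the other listed genes blue, with *H2-Eb1* highest at 0.89 and *Tap1* lowest at -0.53.

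Promoter sequences are shown because class II genes are known to share an X box and a Y box ahead of their start, which the factors that recruit CIITA bind. RefSeq promoters of GRCm38.p6, from 250 bases before to 50 bases after a gene start, held entries for 7 of the 9 members on chromosomes 16 and 17, and for *H2-Eb2*. *H2-Ab1* and *Ciita* had no entry. The letters TGATTGG (Y box), GCAAC and AACNNATG (both from the X box, sharing the letters AAC where they meet) were searched on both strands, and were chosen after these sequences were seen. Of all 32851 promoters, 7.82% held TGATTGG, 35.2% held GCAAC and 8.86% held AACNNATG. Either X box pattern within 40 bases before TGATTGG on the same strand was found in 112 promoters, 0.341% of all. Both were found in this order in 6 of the 7 members, *H2-Aa*, *H2-Eb1*, *H2-DMb1*, *H2-DMb2*, *H2-Oa* and *H2-Ob*, and in *H2-Eb2*, but in neither entry of *H2-DMa*. The AAC of the X box pattern began 26 to 29 bases before the Y box. Each stretch reads 5′ to 3′ on the strand of its gene, with the matched letters in capitals.
H2-Eb1, chr17:34305766-34305817, plus strand: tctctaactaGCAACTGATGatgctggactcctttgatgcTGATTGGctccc
H2-Aa, chr17:34287862-34287913, minus strand: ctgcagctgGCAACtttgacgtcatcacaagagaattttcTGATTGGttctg
H2-DMb1, chr17:34153088-34153139, plus strand: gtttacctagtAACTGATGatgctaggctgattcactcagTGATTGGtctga
H2-DMb2, chr17:34145117-34145168, plus strand: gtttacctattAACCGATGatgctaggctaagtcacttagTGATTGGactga
H2-Oa, chr17:34092294-34092345, plus strand: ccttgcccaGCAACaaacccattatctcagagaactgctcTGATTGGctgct
H2-Ob, chr17:34238806-34238857, plus strand: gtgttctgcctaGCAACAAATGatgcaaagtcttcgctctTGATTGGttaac

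Among 7 genes of the enhanceosome, the proteins that bind these boxes, 3 rose and 3 fell, with a median log2 fold change near 0. *Rfx5*, the subunit of the X box factor RFX that binds DNA, was at 53.1 and 55.1 CPM with DMSO and at 30.3 and 31.7 CPM with MAPK13-inhibitors. It was lower in both treated libraries and fell by 0.80 on the log2 scale (edgeR adjusted p = 8.36e-06), while its partners *Rfxank* (log2 fold change 0.54) and *Rfxap* (0.26) rose. The call of *Rfxap* was lost with DESeq2 and without DMSO replicate 2, DMSO replicate 3 or MAPK13-inhibitors replicate 3. *Nfya* and *Nfyb*, subunits of the Y box factor, fell with log2 fold changes of -0.86 and -0.55, and *Nfyc* was not called. *Creb1* rose by a log2 fold change of 0.77. In the replicate 1 pair *Rfx5* went the other way, from 8.52 to 12.8 FPKM, as did *Rfxap* (5.36 to 4.15 FPKM) and *Creb1* (12.2 to 11.0 FPKM), and 5 of the 7 genes were lower.

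Of 9 enzymes that process antigen or invariant chain, 7 rose and none fell, with a median log2 fold change of 0.61. *Ctsh*, a lysosomal cysteine protease, was at 25.2 and 23.6 CPM with DMSO and at 61.3 and 62.5 CPM with MAPK13-inhibitors. Both treated libraries lay far above both controls, and the log2 fold change of 1.34 ± 0.08 (SE; edgeR adjusted p = 3.22e-07) was above that of every class II gene. *Ctss*, the protease that trims the invariant chain, rose by a log2 fold change of 0.61 (edgeR adjusted p = 1.36e-05), close to *Cd74*, and went from 37.0 to 56.9 FPKM in the replicate 1 pair. *Ctsl* and *Ifi30* did not pass, with log2 fold changes of -0.07 and 0.05, although *Ifi30* was called higher with scaling by library totals, where the sign of *Ctsl* also turned. In the replicate 1 pair 8 of the 9 enzymes were higher with MAPK13-inhibitors. None of the 3 genes of class II turnover passed. *Cd83*, which protects class II from ubiquitination, was at 207 and 203 CPM with DMSO and at 202 and 204 CPM with MAPK13-inhibitors, but went from 27.4 to 103 FPKM in the replicate 1 pair.

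The route from interferon-gamma to *Ciita* was mixed, with 3 of 9 genes higher, 3 lower and a median log2 fold change of -0.07. *Ifng*, the cytokine itself, was at 4.11 and 5.33 CPM with DMSO and at 2.09 and 2.54 CPM with MAPK13-inhibitors. It was lower in both treated libraries and fell by 1.03 on the log2 scale (edgeR adjusted p = 0.00188), yet went from 16.4 to 92.6 FPKM in the replicate 1 pair. *Usf1* and *Jak1* rose by log2 fold changes of 0.78 and 0.59, and *Jak2* and *Socs1* fell with log2 fold changes of -0.77 and -1.38. Of 8 haematopoietic regulators of *Ciita*, 3 rose and 2 fell, with a median log2 fold change of 0.09. *Pax5*, *Ebf1* and *Spi1* rose by log2 fold changes of 0.62, 0.74 and 0.46, and *Irf4* and *Irf8* fell with log2 fold changes of -0.65 and -0.27. The call of *Irf8* was lost with scaling by library totals, and that of *Spi1* without DMSO replicate 2. *Pax5* went from 2.59 to 1.27 FPKM in the replicate 1 pair and *Irf8* from 22.7 to 45.9 FPKM, both opposite to the count table, while *Ebf1*, *Spi1* and *Irf4* kept its direction.

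Markers of cells that normally make class II were present in these libraries and moved with treatment, although the study's methods describe isolating splenic CD4+ T cells with a commercial kit, a step meant to remove such cells. Of 14 B cell markers, 12 are listed in the tables, and of these 8 rose and 2 fell, with a median log2 fold change of 0.39. *Cd79a* and *Cd79b*, the signalling chains of the B cell receptor, rose by log2 fold changes of 0.18 and 0.17, but both calls were lost without DMSO replicate 2 and without DMSO replicate 3, leaving 6 of the list higher each time. *Cd79b* was the most abundant per length. The summed level of the list was 1178 and 1155 CPM with DMSO and 1359 and 1386 CPM with MAPK13-inhibitors, higher in both treated libraries. *Blk*, *Pax5* and *Ms4a1* rose by log2 fold changes of 1.07, 0.62 and 0.67. In the replicate 1 pair, 10 of the 12 markers were lower with MAPK13-inhibitors, and their sum was 53.8 FPKM with DMSO and 37.4 FPKM with MAPK13-inhibitors, while 6 of the 10 class II genes were higher and 4 lower in that treated library.

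Dendritic cell and macrophage markers were at lower levels and rose. Of 8 dendritic cell markers, 4 were tested and called higher, with a median log2 fold change of 1.56. *Xcr1*, at 0 and 4 counts with DMSO and 27 and 16 with MAPK13-inhibitors, passed the filter through the treated libraries alone. With at least 10 counts required in every library, 3 markers were left, and all 3 rose with a median of 1.49. *Zbtb46*, the most abundant of them, was at 15.3 and 15.1 CPM with DMSO and at 45.8 and 37.0 CPM with MAPK13-inhibitors. It was higher in both treated libraries, as was *Flt3* (log2 fold change 1.67), while *Cd209a* was at 0 counts in all 4 libraries. The genes of this list that were not tested had at most 6 counts in any library, so the list's median covers only the genes that passed the filter. *Clec9a* had 6 counts in MAPK13-inhibitors replicate 2 and 0 in the others. The list summed to 19.2 and 19.5 CPM with DMSO and to 59.1 and 49.3 CPM with MAPK13-inhibitors, and in the replicate 1 pair to 3.36 and 14.6 FPKM. Of 10 macrophage and monocyte markers, 7 were tested and 5 called higher, with a median log2 fold change of 1.83, or 1.72 with *C1qb* placed at the bound that 3 counts allow. *C1qb*, at 2 and 0 counts with DMSO and 14 and 12 with MAPK13-inhibitors, passed the filter through the treated libraries alone, and its call was lost with DESeq2 and without DMSO replicate 3. The other 4 genes called higher had at least 10 counts in every library. *Csf1r*, a defining receptor, had only 8 and 6 counts with DMSO and 18 and 11 with MAPK13-inhibitors and was not called. *Adgre1*, the F4/80 antigen, had 14 and 11 counts with DMSO and 108 and 79 with MAPK13-inhibitors. *Cd68*, the most abundant of the list, rose by a log2 fold change of 1.44, as did *Lyz2* (2.81). This list summed to 12.6 and 11.5 CPM with DMSO and to 40.9 and 33.7 CPM with MAPK13-inhibitors, and in the replicate 1 pair to 3.05 and 9.96 FPKM. These lists were higher in the treated libraries of both tables.

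Of 4 plasma cell markers, 3 were tested and all 3 rose (median log2 fold change 1.24, or 0.76 without DMSO replicate 3), led in level by *Mzb1*, while *Tnfrsf17* had at most 2 counts. This list summed to 156 and 140 CPM with DMSO and to 205 and 217 CPM with MAPK13-inhibitors, and in the replicate 1 pair to 22.5 and 16.3 FPKM. In that pair only *Mzb1* was lower with MAPK13-inhibitors (21.8 to 10.0 FPKM), while *Sdc1* (0.457 to 4.46 FPKM) and *Jchain* (0.302 to 1.82 FPKM) were higher. For CD8 T and NK cells, 2 of 4 markers were tested and both fell (median log2 fold change -1.01). With DESeq2 the call of *Cd8b1* was lost and the median was 0.75, and with no filter the median was 0.68, because markers not tested above then enter it. The list summed to 11.7 and 11.0 CPM with DMSO and to 5.92 and 7.91 CPM with MAPK13-inhibitors. *Cd8b1* was the most abundant of that list, and in the replicate 1 pair its sum was 3.54 and 8.51 FPKM. *Ncr1* had 6 counts in MAPK13-inhibitors replicate 2 and 0 in the others.

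**Figure D3:**
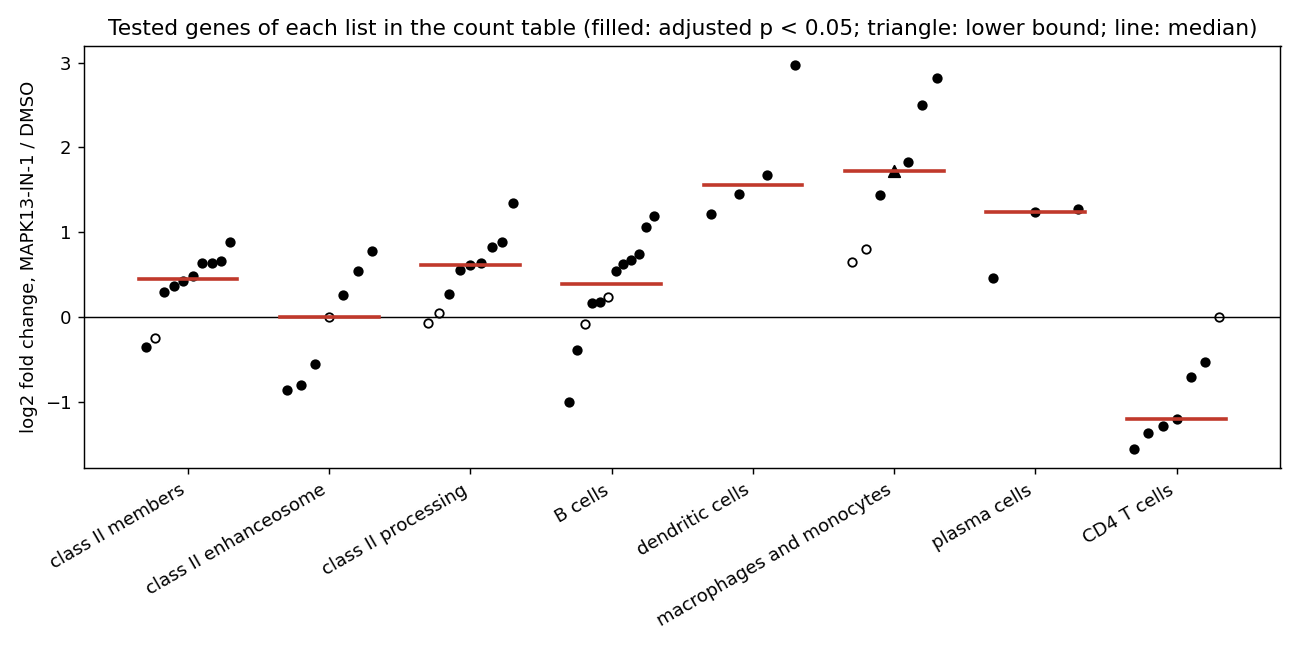
Log2 fold change of MAPK13-inhibitors-treated against DMSO-treated libraries in the count table (vertical axis) for each tested gene of 8 lists (horizontal axis), with filled points for genes at an adjusted p under 0.05, open points for the others, a triangle for *C1qb* at its lower bound and a red line for the median of each list. The class II genes have a median of 0.45, the B cell markers of 0.39 and the CD4 T cell markers of -1.20.

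The labelled cell type was also checked. Of 8 CD4 T cell markers, 7 are listed, and 6 fell and none rose, with a median log2 fold change of -1.20. *Cd4* itself was not called, at 275 and 276 CPM with DMSO and 267 and 283 CPM with MAPK13-inhibitors (edgeR adjusted p = 0.993). The groups overlapped for *Cd4*, while *Cd3e*, a chain of the T cell receptor complex, was at 105 and 103 CPM with DMSO and at 34.9 and 45.8 CPM with MAPK13-inhibitors. *Cd3g*, *Lck* and *Cd3e* fell with log2 fold changes of -1.56, -1.20 and -1.37, and *Lck* was the most abundant per length. The list summed to 1664 and 1695 CPM with DMSO and to 903 and 1025 CPM with MAPK13-inhibitors, and in the replicate 1 pair to 1024 and 934 FPKM. Per length, the B cell list stood to the CD4 T cell list at 0.711 and 0.695 with DMSO and at 1.61 and 1.41 with MAPK13-inhibitors. In the replicate 1 pair this ratio was 0.0525 and 0.0401, far below all 4 libraries of the count table. Per length, the sum of *Cd74*, *H2-Aa*, *H2-Ab1* and *H2-Eb1* stood to the B cell list at 3.62 and 3.54 with DMSO and at 4.93 and 4.70 with MAPK13-inhibitors, and at 4.41 and 7.62 in the replicate 1 pair. These class II genes were higher relative to the B cell list in each treated library than in the controls of the same table. The part of these other cells in the class II values was not tested.

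*Mapk13*, the target of the compound, had 79 and 74 counts with DMSO and 21 and 51 counts with MAPK13-inhibitors. It was lower in both treated libraries and fell by 1.47 on the log2 scale (edgeR adjusted p = 0.0049). The log2 fold change was -0.94 without MAPK13-inhibitors replicate 2 and -2.29 without replicate 3. *Mapk13* went the other way in the replicate 1 pair, from 0.191 to 3.28 FPKM.

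The genes whose pattern was most like the mean of *H2-Aa*, *H2-Ab1*, *H2-Eb1* and *Cd74* over the 6 libraries were *Usp45*, *Kif3c*, *Washc3*, *Nufip2*, *Asb7*, *Patl1*, *Mrpl45*, *Lrp6*, *Efl1* and *Tmem87a*. They were taken by the smallest root mean square difference of log2 levels, centred within each table, among 8797 genes, and lay between 0.02 and 0.03 from that mean. Their log2 fold changes in the count table ran from 0.60 in *Asb7* to 0.67 in *Patl1*.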

How the data were processed

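RNA-seq libraries of splenic CD4+ T cells were grouped by their labels as DMSO-treated or MAPK13-inhibitors-treated. For replicates 2 and 3 the authors deposited raw counts per gene, and their processing notes name fastp 0.21.0, HISAT2 2.1.0, StringTie 2.1.5, DESeq2 1.30.1 and the mm10 build. In the files of the replicate 1 pair, the deposited value of each gene was taken as FPKM from its size and its scaling with gene length, since no source names the unit, and the authors' notes name FastQC and HISAT2. The annotation and any use of strand in counting are not given in the sources used here, and 0 per-sample columns were left unused.

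The counts were fitted with edgeR 4.0.16 (R 4.3.3). Low genes were removed by filterByExpr (minimum count 10, minimum total 15), libraries were scaled by TMM, and groups were compared by the quasi-likelihood test with Benjamini-Hochberg adjustment over all 16269 genes tested, calling genes at an adjusted p under 0.05. Standard errors are the absolute log2 fold change over the square root of the F statistic. The fit was tested on simulated data. The replicates within each group were further apart than sampling noise allows (mean chi-square per gene of 2.96 with DMSO and 8.92 with MAPK13-inhibitors). The medians were lower, 0.984 with DMSO and 1.96 with MAPK13-inhibitors. Sampling noise alone also gives a lower median than mean, so the medians cannot be read on the scale of the means. Log2 ratios of FPKM used a pseudocount of 1, which understates the change of low genes. Gene positions and exonic lengths came from GENCODE vM21 (GRCm38) and promoters from RefSeq.

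The genes and lists were chosen with earlier results of these data known. Named were all 10 class II genes, genes of the pathway lists beside their list's counts, from each marker list its most abundant gene, its defining markers, those at 0 and at most 3 with the smallest p-values, *Mapk13*, and the 10 genes outside the lists most like the mean of *H2-Aa*, *H2-Ab1*, *H2-Eb1* and *Cd74*, with at least 10 CPM on average and at least 1 FPKM in both replicate 1 libraries. *BC051537*, *Dexi*, *C1qb*, *Clec9a*, *Ncr1* and *Tnfrsf17* were named after their values were seen. Some single genes that meet this rule are left out of the text. The alternatives were RLE, upper-quartile and library-total scaling, no filter, at least 10 counts in every library, a replicate block, DESeq2 1.42.0, each library left out, an added fold change threshold, *H2-DMb1* and *H2-DMb2* summed, a pseudocount of 0.1, and likeness over the count table alone.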

Additional observations from a re-analysis of the deposited data

Results flagged for a closer look

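For 4 of the 10 class II genes the replicate 1 pair moved opposite to both libraries of the count table. The log2 ratio of MAPK13-inhibitors to DMSO in that pair, on the scale of log2(FPKM + 1), was -0.24 for *H2-Ab1*, -0.43 for *H2-DMb2* and -0.17 for *Ciita*, which were higher in both treated libraries of the count table. For *H2-Oa* it was 0.75, whereas both treated libraries of the count table were lower. *Mapk13* was also opposite, with a log2 ratio of 1.84 in the pair and lower levels in both treated libraries of the count table. With a pseudocount of 0.1 the log2 ratio of *Mapk13* in the pair was 3.54. The difference between the pair and the count table was not tested. Kit and processing cannot be told apart from each other, or from dose, day and genotype, which the labels of the pair do not give. The cell markers differed as well. Per length, the B cell list stood to the CD4 T cell list at 0.0525 with DMSO and 0.0401 with MAPK13-inhibitors in the pair. In the count table that ratio was 0.695 to 1.61.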

How the results depend on the processing

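The class II genes that rose, *Cd74*, *H2-Aa*, *H2-Ab1*, *H2-Eb1*, *H2-DMa*, *H2-DMb1*, *H2-DMb2* and *Ciita*, kept their direction and their call under all alternative fits by adjusted p alone. Of 110 values of single class II genes under these alternatives, 105 kept direction and call, 2 lost the call (*H2-Ob*, with library-total scaling and without DMSO replicate 2) and 3 gained it (*H2-Oa*, with no filter, without MAPK13-inhibitors replicate 3 and with the replicate block). With each library left out in turn, 8731 to 10943 genes were called, and 8 to 10 class II genes. The lone library of a group was then assumed to vary like the other group. With the replicate number as a block, 10645 genes and 10 class II genes were called; same-numbered libraries did not deviate together (correlation -0.00641 over genes), and no label says that the number marks a shared animal or day. Requiring also an absolute log2 fold change over 1 left 3799 genes and 0 class II genes, against 10374 and 9 without it, by construction, although *H2-Eb1* passes both with library-total scaling (log2 fold change 1.02). DESeq2 called 8278 genes. Scaling by library totals moved the median log2 fold change of all genes from 0.01 to 0.14, with 6176 of 10478 calls higher against 5122 of 10374, and over their own sets of genes it was 0.16 with no filter and 0.17 with DESeq2. Of the 10 genes most like the class II genes, 1 was also found over the count table alone; the cause was not tested. The depth of the replicate 1 pair is unknown, and a pseudocount of 0.1 reversed none of its log2 ratios for the class II genes.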
